A study of Mus musculus with 12 samples.

Results

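The transcripts of 10 mouse genes at 6 imprinted loci were followed in the palatal shelves, the paired outgrowths of the embryonic face that later fuse into the roof of the mouth. The genes were Peg3, Usp29 and Zim1 of the Peg3 domain, Plagl1, the neighbours Grb10 and Ddc, the overlapping Igf2r and Airn, Zdbf2, and Impact. They were chosen by symbol, 10 of the 56691 genes in each table, and all 10 passed the filter on low counts that left 17335 genes for testing. Palatal shelves were taken from embryos of gestational day 12 and sequenced as RNA in 12 libraries, each from a pool of 2 embryos of the same genotype. The control libraries came from untreated wild-type (WT) embryos, and the knockout libraries from untreated embryos with a conditional deletion of Dnmt1 (DNMT1 KO). The AzadC libraries came from wild-type embryos exposed to 5-aza-2'-deoxycytidine, a cytidine analogue that traps DNA methyltransferases, and the vehicle libraries from wild-type embryos given its vehicle alone. Each of the 4 groups had 3 libraries. Which Cre line drove the deletion, which exons it removed, and when, how and at what dose AzadC was given are not stated in the labels, so the fraction of cells that lost Dnmt1 is unknown.

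Imprinted genes are transcribed from only the maternal or only the paternal copy, according to DNA methylation that was laid down at control regions in the egg or the sperm. DNMT1 copies that methylation onto new DNA strands at each cell division, and where it is lost the silent copy may be activated or the active copy silenced, depending on the locus. The present libraries measure RNA only. They do not separate the parental copies and hold no methylation measurement, so each value below is the sum of both copies over all cells of a pool.

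Libraries held 12640536 to 33113790 expected counts, and levels are given as CPM, each count as a share of its scaled library total. Dnmt1 itself stood at 286.1, 277.8 and 258.0 CPM in the control libraries, 200.9, 179.6 and 190.9 in the knockout, 452.2, 451.1 and 448.3 in vehicle and 408.4, 482.0 and 411.2 in AzadC. The knockout was thus lowest, at 0.695 times the control level (adjusted p = 0.000369), but the 2 wild-type reference groups also differed, with vehicle 1.64 times control (adjusted p = 0.000286). Both p-values are from edgeR's quasi-likelihood test with Benjamini-Hochberg adjustment over all genes tested, as are all adjusted p-values below unless another tool is named. Genes of palatal mesenchyme were present in every group, with a summed level of 1441.2 to 2485.1 CPM for 12 markers and none of them at 0. In the knockout 4 of these 12 were called lower than in control (Foxf2, Pdgfra, Twist1 and Meox2, log2 changes -0.84, -0.50, -0.76 and -0.98) and 3 lower than in vehicle. Macrophage markers moved with the knockout: 17 of 18 were called higher than in control, and their sum was 462.4 to 494.2 CPM in the knockout, 97.3 to 139.0 in control, 124.2 to 156.1 in vehicle and 195.9 to 216.7 in AzadC. Skeletal muscle markers summed to 207.3 to 1238.2 CPM in the knockout and 8.9 to 124.2 in control, with 12 of 18 called higher, while 11 of 11 cartilage markers were called lower in the knockout, at 373.2 to 618.7 CPM against 990.0 to 2975.7, and so were 4 of 8 bone markers. Against vehicle, 17 of 18 macrophage markers were called higher in the knockout and 4 of 11 cartilage markers lower. There 0 of 18 muscle and 0 of 8 bone markers were called, with list medians of 1.64 and -0.16. The muscle sum in vehicle, 53.4 to 500.9 CPM, overlapped that in the knockout. Between the 2 references, 4 of 8 bone markers (among them Runx2 at -0.90 and Alpl at -2.38) and 3 of 11 cartilage markers were called lower in vehicle than in control, and 3 of 9 erythroid markers higher (among them Hbb-bh1 at 1.97 and Gata1 at 1.61). Also lower were 2 of 12 epithelial markers (Krt5 at -2.5 and Krt14 at -2.19) and 2 of 15 neuronal markers. Higher were 1 of 15 neuronal and 2 of 18 macrophage markers. Of all genes tested, 7.83% were called higher and 6.43% lower in knockout against control. The shares were 6.70% higher and 4.13% lower in knockout against vehicle, and 1.46% higher and 2.06% lower in vehicle against control. In bulk tissue, fewer cells of a type and less RNA per cell cannot be told apart, and the part of these markers in the results below was not tested. The labels state that each group drew on several litters but do not say which embryos shared one.

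Levels per transcript length, in the deposited TPM, RSEM's length-corrected unit, spanned 2 orders of magnitude among the 10 genes. In control, Grb10 was the most abundant at 697.8 ± 32.4 TPM (SD, n = 3). Plagl1 at 247.0 ± 68.2 and Peg3 at 185.3 ± 28.3 followed, and their libraries overlapped. Igf2r stood at 61.2 ± 11.1. Impact at 38.6 ± 1.14 and Airn at 36.9 ± 6.43 overlapped, as did Zim1 at 18.9 ± 6.74 and Usp29 at 13.4 ± 1.61. Ddc at 7.58 ± 1.3 and Zdbf2 at 5.66 ± 0.514 were the least abundant. All other neighbours in this order did not overlap between libraries. Every gene had counts in every library, from 56 for Ddc in an AzadC library to 69823 for Grb10 in a vehicle library.

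**Figure D1:**
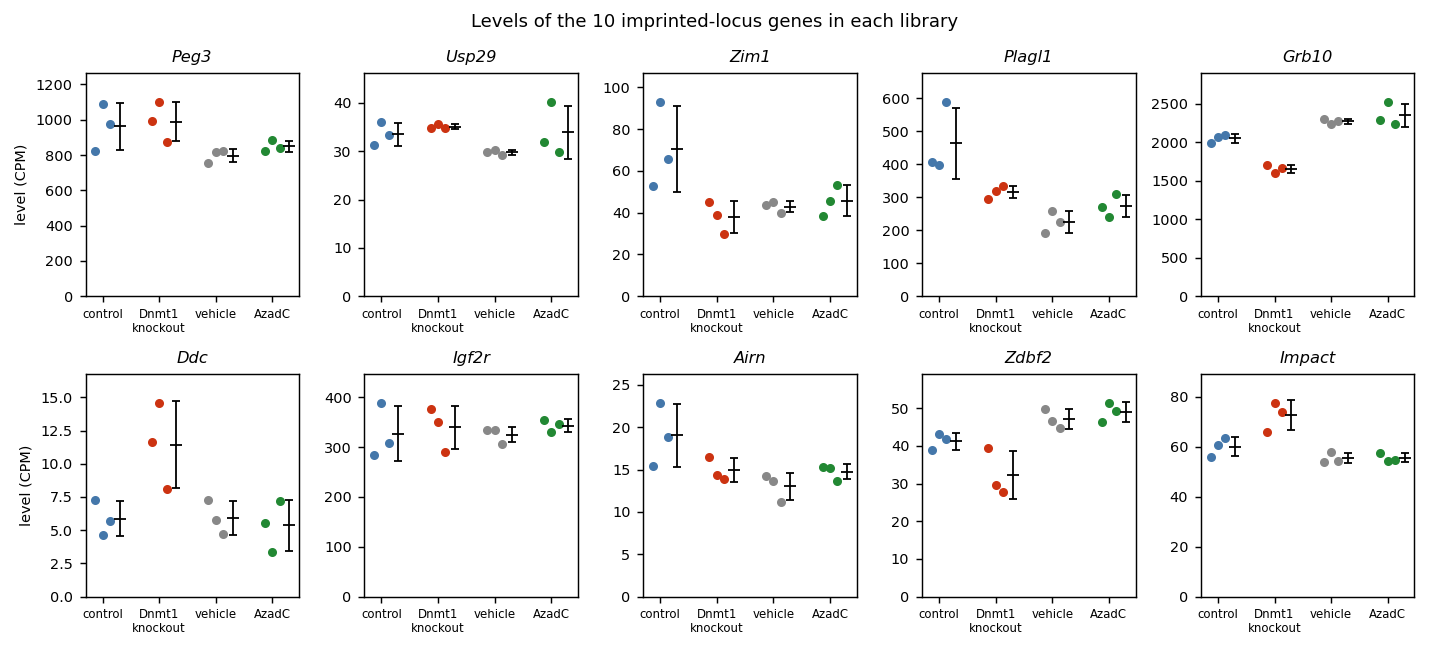
Levels (CPM, linear axes from 0) of the 10 genes in the 12 libraries, points being libraries and bars the mean ± SD of 3. Knockout libraries lie below all others for Grb10 and above all others for Ddc and Impact, whereas control lies above the other 3 groups for Plagl1 and, apart from 1 AzadC library at 53.3 CPM against a control at 52.6, for Zim1.

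Loss of Dnmt1 was accompanied by modest changes in opposite directions. Against control, 2 of the 10 genes rose (Ddc and Impact) and 3 fell (Zim1, Plagl1 and Grb10), where 7.83% of all genes tested were called higher and 6.43% lower. The median of the 10 log2 changes was -0.14, with a median size of 0.33 beside 0.20 over all genes. With AzadC against vehicle none of the 10 changed, where 0.00577% of all genes were called in each direction. No member reached an unadjusted p under 0.05 there by edgeR's or limma-voom's test, and 1 did by DESeq2's, which called none. Of all genes, 6.37% reached it by edgeR's. The 10 log2 changes with AzadC ran from -0.12 to 0.28. Between the 2 wild-type references, vehicle against control, only Plagl1 was called, as lower (background 2.06% lower and 1.46% higher). Against vehicle the knockout had Plagl1 and Impact higher (background 6.70%) and Grb10 and Zdbf2 lower (background 4.13%). Comparisons of the knockout with control and with vehicle share the knockout libraries and are given side by side. The difference between the knockout effect and the AzadC effect was called for Plagl1 and Grb10, both negative, where 2.20% of all genes were called in each direction.

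**Figure D2:**
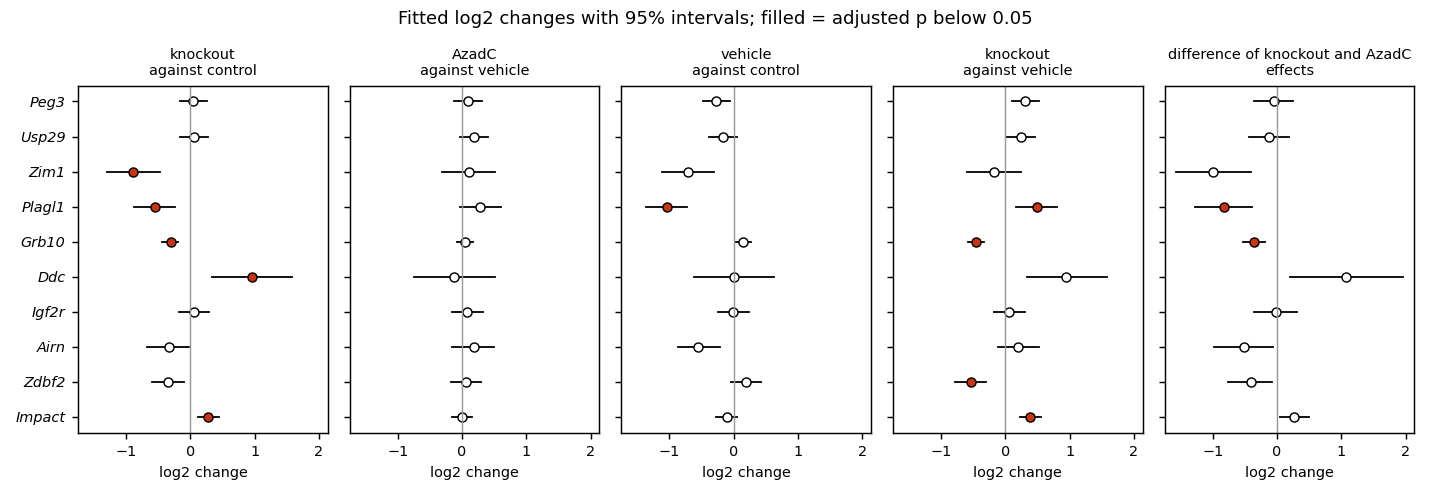
Fitted log2 changes of the 10 genes in the 5 comparisons, with 95% intervals from edgeR's fit to 12 libraries; filled points have an adjusted p below 0.05. Grb10 lies left of 0 in both knockout comparisons, Plagl1 lies left of 0 against control and right of 0 against vehicle, and no point is filled for AzadC.

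Within the Peg3 domain, Zim1 fell in the knockout while Peg3 and Usp29 did not pass the test. The domain lies on chromosome 7 of GRCm38 (mm10). Peg3 (6703892 to 6730431, minus strand) encodes a large zinc-finger protein and is transcribed from the paternal copy, as is Usp29 (6730578 to 6967219, plus strand), a member of the ubiquitin-specific protease family. Zim1 (6671269 to 6696450, minus strand) encodes another zinc-finger protein and is known as maternally expressed. Peg3 and Usp29 start 147 bases apart on opposite strands with no shared exon bases. Their RefSeq promoter windows, running from 250 bases before to 50 bases after the start, overlap over 263 bases. The shared stretch is printed from the Peg3 window (GRCm38.p6, chr7:6730370-6730669, minus strand, 5′ to 3′) because both genes read out from it. The Zim1 window (chr7:6696383-6696682, minus strand) is shown beside it because Zim1 was the member of the domain that changed. CpG dinucleotides, the bases that DNMT1 methylates, are in capitals.
Peg3: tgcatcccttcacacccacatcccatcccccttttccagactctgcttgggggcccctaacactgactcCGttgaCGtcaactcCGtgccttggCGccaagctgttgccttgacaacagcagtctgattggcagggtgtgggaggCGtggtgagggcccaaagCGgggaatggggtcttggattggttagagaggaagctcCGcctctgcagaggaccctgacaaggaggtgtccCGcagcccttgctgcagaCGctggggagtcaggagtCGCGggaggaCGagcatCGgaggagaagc
Zim1: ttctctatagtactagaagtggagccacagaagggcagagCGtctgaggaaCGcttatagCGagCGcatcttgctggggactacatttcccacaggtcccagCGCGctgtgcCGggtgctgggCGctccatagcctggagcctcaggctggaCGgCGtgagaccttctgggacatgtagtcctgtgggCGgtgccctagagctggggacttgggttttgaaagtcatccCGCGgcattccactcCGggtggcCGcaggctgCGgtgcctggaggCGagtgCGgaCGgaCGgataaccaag
The Peg3 window holds 13 CpGs and the Zim1 window 20, against a median of 7 over 32851 such windows.

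Zim1 stood at 52.6, 92.8 and 65.5 CPM in control, 44.9, 38.7 and 30.0 in the knockout, 43.5, 45.3 and 39.9 in vehicle and 38.4, 45.7 and 53.3 in AzadC. Every knockout library lay below every control library, but the vehicle libraries did so too. The knockout level was 0.540 times control (log2 change -0.89, SE 0.19, adjusted p = 0.00755). Vehicle was 0.611 times control (log2 change -0.71, SE 0.19, adjusted p = 0.0573), and the knockout differed from vehicle by a log2 of -0.18 with a 95% interval of -0.59 to 0.24. The fall in Zim1 thus stood out from control and not from vehicle. The call against control was kept on leaving out any library. Without control library 1 the vehicle comparison was called (log2 change -0.89, adjusted p = 0.0232), as was the knockout effect minus the AzadC effect (-1.17, adjusted p = 0.0188, against -0.99 and 0.0559 with all libraries). DESeq2 called both with all libraries (adjusted p = 0.00383 and 0.00465). On the TPM scale the knockout change was -0.67 (limma, adjusted p = 0.103). The mean length of the Zim1 transcripts, weighted by their abundance, was 5904 to 6526 bases in control and 4451 to 6176 in the knockout.

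Peg3 stood at 820.6, 1087.2 and 978.0 CPM in control and 991.9, 1098.9 and 875.8 in the knockout, with 756.1, 815.7 and 820.6 in vehicle and 825.7, 884.6 and 841.6 in AzadC. Knockout and control overlapped, and the log2 change of 0.04 had a 95% interval of -0.17 to 0.25. The knockout libraries all lay above the vehicle libraries (log2 0.31, SE 0.10, adjusted p = 0.0617). Usp29 ran from 31.2 to 36.0 CPM in control, 34.7 to 35.6 in the knockout, 29.2 to 30.2 in vehicle and 29.8 to 40.1 in AzadC. Its knockout change of 0.06 had an interval of -0.16 to 0.28. The ratio of Peg3 to Usp29 in TPM was 13.2 to 14.2 in control and 12.6 to 14.7 in the knockout, so the divergent pair kept overlapping proportions. The Peg3 comparison with vehicle passed the threshold by DESeq2 (adjusted p = 0.0168) and by edgeR when control library 1 (adjusted p = 0.0254), control library 2 (0.0394) or knockout library 3 (0.0327) was left out, and that of vehicle with control when control library 1 was (0.0421).

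Zfp264, the next tested gene beyond Usp29 once genes with Gm or Rik names were left out, was detected mainly in the knockout. It lies just past the end of Usp29 at 6977246 to 6991087 and is annotated as a transcribed unprocessed pseudogene of the zinc-finger family. Counts were 18, 48 and 27 in the knockout libraries, 3, 2 and 0 in control, and 0 in every vehicle and AzadC library. The knockout mean of 1.59 CPM was 28.7 times the control mean of 0.0554. It was at least 38.2-fold higher than vehicle, taking 3 counts over the 3 vehicle libraries as the floor. The gene passed the filter on low counts through its knockout libraries alone, so these values are a description and no test is given. All knockout libraries lay above all others, at a level far below that of Usp29. Zim2, beside Zim1 in the same domain and too low to be tested, had counts of 2, 4 and 1 in the knockout, 1, 0 and 0 in control and 0 elsewhere. Zim3, which overlaps the start of Zfp264, had 0 counts in every library except an AzadC library with 2.08. Zinc-finger genes of this cluster resemble each other, and counting could divide reads between copies, so these low counts are uncertain.

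Plagl1 encodes a zinc-finger transcription factor, also called ZAC1, that restrains proliferation and regulates other imprinted genes, and it is read from the paternal copy. It fell in the knockout against control and was higher in the knockout than in vehicle, and the 2 references differed from each other by more than either differed from the knockout. The gene lies on chromosome 10 at 13060504 to 13131694 on the plus strand. Its RefSeq window (GRCm38.p6, chr10:13090582-13090881, plus strand) is printed as the CpG-rich start of a gene with several promoters, CpGs in capitals.
Plagl1: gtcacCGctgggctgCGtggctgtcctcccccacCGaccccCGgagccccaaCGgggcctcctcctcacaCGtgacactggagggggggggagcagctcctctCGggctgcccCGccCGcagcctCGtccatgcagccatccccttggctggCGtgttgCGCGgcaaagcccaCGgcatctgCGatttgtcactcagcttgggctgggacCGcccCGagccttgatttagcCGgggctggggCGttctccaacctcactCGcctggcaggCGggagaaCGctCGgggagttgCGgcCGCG
The window holds 26 CpGs, more than 83.1% of all windows, and 1 copy of TGCCGC, the hexamer bound by the imprint-protecting factor ZFP57. That hexamer was searched on both strands and occurs in 11.6% of all windows.

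Plagl1 stood at 406.1, 396.1 and 587.4 CPM in control, 295.2, 318.5 and 334.0 in the knockout, 191.9, 256.9 and 225.0 in vehicle and 269.8, 240.4 and 309.7 in AzadC. Control was highest and vehicle lowest on average, with no overlap between control and any other group. The knockout was 0.682 times control (log2 change -0.55, SE 0.15, adjusted p = 0.0233). Vehicle was 0.486 times control (log2 change -1.04, SE 0.15, adjusted p = 0.00362), between 2 groups of wild-type embryos whose bone, cartilage and erythroid markers also differed, as given above; their part in it was not tested. The knockout was 1.41 times vehicle (log2 change 0.49, SE 0.15, adjusted p = 0.0485). AzadC and vehicle overlapped, with a log2 change of 0.28 and a 95% interval of -0.03 to 0.60. The knockout effect minus the AzadC effect was -0.83 (SE 0.21, adjusted p = 0.0399). The call against control was lost without control library 3 (log2 change -0.34, adjusted p = 0.0806), knockout library 1 (0.0809) or knockout library 2 (0.0724), and with the score of the skeletal muscle markers as a covariate (-0.45, adjusted p = 0.190). That score was 0.70 to 3.19 in the knockout and -3.58 to -0.02 in control. The score and the genotype thus cannot be fully told apart in that comparison. The call against vehicle was lost without knockout library 1, 2 or 3 (adjusted p = 0.0633, 0.132 and 0.129), vehicle library 1 or 3 (0.156 and 0.131) or AzadC library 1 (0.0630). The difference of effects was lost without knockout library 1, 2 or 3 (adjusted p = 0.0882, 0.0908 and 0.0503), vehicle library 1 or 3 (0.0938 and 0.0778) or AzadC library 1 or 3 (0.0779 and 0.0978), with values of -0.74 to -0.88, and with that muscle score (-0.72, adjusted p = 0.163) or the summed level of 4 Y-linked genes (-0.75, adjusted p = 0.0957).

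The transcripts behind those counts also differed in length. The mean Plagl1 transcript measured 3944, 2635 and 3389 bases in control, 2738, 2886 and 3114 in the knockout, 2834, 2563 and 2488 in vehicle and 2478, 2323 and 2845 in AzadC. The 2 longest values were control libraries, and the other control library, at 2635 bases, fell among the other groups. Per length, Plagl1 stood at 171.6, 265.0 and 304.5 TPM in control and at 181.8, 182.5 and 176.9 in the knockout, so the groups overlapped on that scale. Vehicle had 116.5, 172.7 and 158.9 TPM and AzadC 186.8, 173.7 and 185.5. With limma on log2 TPM the knockout change was -0.41 (adjusted p = 0.180), the vehicle change -0.70 (adjusted p = 0.0877) and the difference between knockout and vehicle 0.29 (adjusted p = 0.370). The gene has 25 annotated transcripts of 336 to 5260 bases, and length estimates from short reads divide reads among them with an error that is not given.

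**Figure D3:**
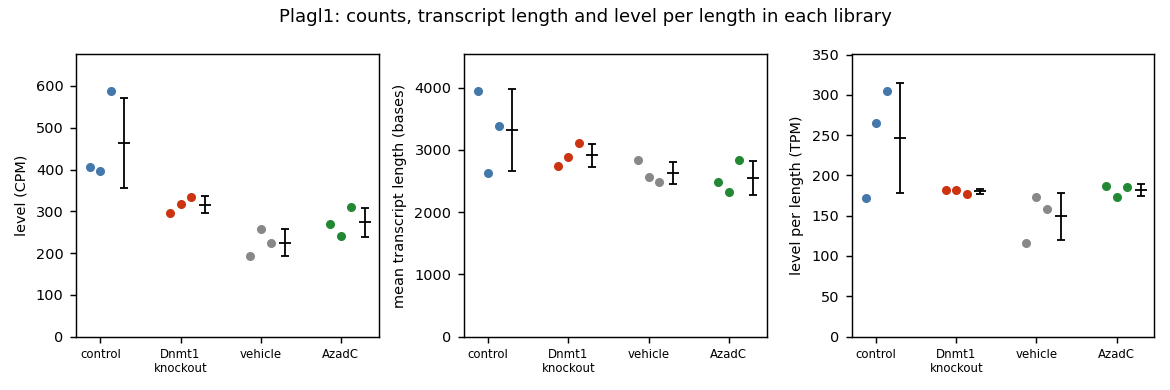
Plagl1 in the 12 libraries as CPM, mean transcript length in bases and TPM (linear axes from 0; bars are the mean ± SD of 3 libraries). Control lies above the knockout in CPM, while in TPM a control library at 171.6 lies below the knockout libraries at 176.9 to 182.5.

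Grb10 fell and its neighbour Ddc rose in the knockout. Grb10 encodes an adaptor protein that binds the insulin and IGF1 receptors and dampens their signal, and outside neurons it is expressed mainly from the maternal copy. Ddc encodes aromatic L-amino acid decarboxylase, which makes dopamine and serotonin from their precursors. Both lie on the minus strand of chromosome 11, Grb10 at 11930508 to 12038683 and Ddc at 11814101 to 11898144, with 32363 bases between them. The windows below (GRCm38.p6, minus strand, chr11:12037371-12037670 for Grb10 and chr11:11890359-11890658 for Ddc) are set side by side because these neighbours moved in opposite directions and differ in CpG content, CpGs in capitals.
Grb10: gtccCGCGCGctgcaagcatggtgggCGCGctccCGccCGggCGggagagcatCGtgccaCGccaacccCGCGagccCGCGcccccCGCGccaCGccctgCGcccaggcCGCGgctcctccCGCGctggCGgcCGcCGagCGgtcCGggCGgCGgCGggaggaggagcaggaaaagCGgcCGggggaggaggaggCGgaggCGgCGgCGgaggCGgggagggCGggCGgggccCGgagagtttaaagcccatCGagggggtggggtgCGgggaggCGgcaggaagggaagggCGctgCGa
Ddc: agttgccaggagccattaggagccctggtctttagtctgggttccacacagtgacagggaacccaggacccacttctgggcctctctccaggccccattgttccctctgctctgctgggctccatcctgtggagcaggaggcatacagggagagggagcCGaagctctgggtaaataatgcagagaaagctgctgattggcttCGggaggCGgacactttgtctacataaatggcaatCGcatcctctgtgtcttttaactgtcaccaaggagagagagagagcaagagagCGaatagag
The Grb10 window holds 45 CpGs, more than 98.1% of all windows, and 1 copy of TGCCGC. The Ddc window holds 5, and a second RefSeq window of Ddc holds 2. A second Grb10 window, farther into the gene, holds 9.

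Grb10 stood at 1989.2, 2074.6 and 2100.9 CPM in control, 1705.1, 1600.2 and 1663.5 in the knockout, 2304.2, 2243.7 and 2272.5 in vehicle and 2292.9, 2518.9 and 2233.7 in AzadC. All 3 knockout libraries were below all 9 others. The knockout was 0.806 times control (log2 change -0.31, SE 0.06, adjusted p = 0.00325) and 0.729 times vehicle (log2 change -0.46, SE 0.06, adjusted p = 0.000226). Leaving out any library kept both calls. AzadC changed Grb10 by 0.05 with a 95% interval of -0.08 to 0.17, and vehicle lay above control by 0.15 (adjusted p = 0.187). The knockout effect minus the AzadC effect was -0.36 (SE 0.08, adjusted p = 0.0280). This difference was lost on leaving out control library 2 or 3 (adjusted p = 0.0628 and 0.0581), knockout library 2 (0.0870), vehicle library 1, 2 or 3 (0.0567, 0.0576 and 0.0626) or AzadC library 1 (0.0543), with changes of -0.33 to -0.38, and with the muscle score (-0.29, adjusted p = 0.118) or the Y-linked sum (-0.35, adjusted p = 0.0504). Its mean transcript length was 4942 to 4988 bases over all libraries, so CPM and TPM gave the same order of groups.

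Ddc stood at 7.27, 4.64 and 5.71 CPM in control, 11.6, 14.6 and 8.06 in the knockout, 7.30, 5.78 and 4.72 in vehicle and 5.52, 3.39 and 7.21 in AzadC. The knockout libraries were the 3 highest of the 12, on 136 to 296 counts each. The knockout was 1.94 times control (log2 change 0.96, SE 0.29, adjusted p = 0.0406) and 1.94 times vehicle (log2 change 0.95, SE 0.29, adjusted p = 0.0506), so only the first passed the threshold. The first call was lost without control library 2 (log2 change 0.81, adjusted p = 0.148), control library 3 (0.0860), knockout library 1 (0.0926), knockout library 2 (log2 change 0.75, adjusted p = 0.178) or AzadC library 1 (0.0526), and on log2 TPM (limma, 0.88, adjusted p = 0.0559). With the score of the skeletal muscle markers, which were higher in the knockout, as a covariate, the log2 change was 0.52 (adjusted p = 0.439). Over all genes that fit called 955 higher and 1076 lower, against 1358 and 1115 without the score. As given for Plagl1, the score and the genotype cannot be fully told apart against control, and the part of muscle in Ddc was not tested. The Ddc comparison with vehicle passed without control library 1 (0.0481), control library 2 (0.0494), knockout library 3 (0.0312), AzadC library 2 (0.0280) or AzadC library 3 (0.0408), and by DESeq2 (0.0113) and limma-voom (0.0330). The other genes of monoamine synthesis and transport gave no call in any of the 5 comparisons, 0 of 11 tested by edgeR. In knockout against control 7.83% of all genes were called higher and 6.43% lower, so this is no result about the list. In knockout against control 0 of the 11 had an unadjusted p under 0.05 by edgeR, DESeq2 or limma-voom, beside 28% of all genes by edgeR. Against vehicle 2 did by each tool, of which DESeq2 called 1, beside 24.9% of all genes at such a p by edgeR. Dbh, which turns dopamine into noradrenaline, had the smallest adjusted p there (log2 2.98, SE 0.91, adjusted p = 0.0531). Neuronal markers, which could carry Ddc, summed to 134.8 to 149.0 CPM in the knockout and 139.6 to 155.0 in control. Single markers moved within that sum: Tubb3 was higher (log2 change 1.01, adjusted p = 0.0121) and Nefl lower (-0.80, adjusted p = 0.0300) than in control, and both were higher than in vehicle, where the list median was 0.46. Their part in the level of Ddc was not tested.

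Several other genes of the insulin and IGF system that Grb10 and Igf2r act on changed in the knockout, 4 of 28 tested higher and 4 lower against control, with a list median of 0.01, beside 7.83% and 6.43% of all genes tested. Pappa2, a protease that frees IGFs from their binding proteins, fell by 2.28 on the log2 scale (SE 0.30, adjusted p = 0.000289), and Stc2, an inhibitor of that class of proteases, rose by 2.93 (SE 0.55, adjusted p = 0.00347). M6pr, the smaller mannose 6-phosphate receptor, rose by 0.39 (SE 0.06, adjusted p = 0.00127). Between the references, Pappa, Pappa2 and Igf1 were lower in vehicle than in control (log2 changes -2.28, -1.72 and -1.11, adjusted p = 0.00321, 0.00878 and 0.0151). Against vehicle 8 of the 28 were higher in the knockout and 1 lower, beside 6.70% and 4.13% of all genes. With AzadC 0 of 28 were called by edgeR, DESeq2 or limma-voom, with 4, 5 and 4 at an unadjusted p under 0.05. Over all genes edgeR called 0.00577% in each direction there, with 6.37% at such a p.

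Zdbf2, a zinc-finger gene read from the paternal copy, was lower in the knockout than in vehicle and did not pass edgeR's test against control. It lies on chromosome 1 at 63273265 to 63314576 on the plus strand, and RefSeq also places a start far upstream of that gene model. The upstream window (GRCm38.p6, chr1:63200108-63200407, plus strand) is printed because it carries 3 copies of TGCCGC, the most of the 12 windows found for 9 of the 10 genes, where 4 windows held any. CpGs are in capitals.
Zdbf2: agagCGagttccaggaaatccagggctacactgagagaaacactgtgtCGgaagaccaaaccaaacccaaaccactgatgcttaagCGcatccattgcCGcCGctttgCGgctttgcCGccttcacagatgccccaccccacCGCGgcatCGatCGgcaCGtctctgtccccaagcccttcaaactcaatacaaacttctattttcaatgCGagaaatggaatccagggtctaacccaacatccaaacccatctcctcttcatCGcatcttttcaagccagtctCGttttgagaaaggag
It holds 15 CpGs, and the window at the annotated gene start holds 38 with no copy of the hexamer.

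Zdbf2 stood at 38.8, 43.2 and 41.8 CPM in control, 39.5, 29.7 and 27.7 in the knockout, 49.9, 46.6 and 44.8 in vehicle and 46.4, 51.5 and 49.2 in AzadC. Knockout library 1 lay within the control range and the other 2 below it. The knockout was 0.687 times vehicle (log2 change -0.54, SE 0.11, adjusted p = 0.00794), a call kept on leaving out any library, and 0.784 times control (log2 change -0.35, SE 0.11, adjusted p = 0.0565). The comparison with control was called by DESeq2 (adjusted p = 0.0312) and without a filter on low counts (0.0214). Without knockout library 1 it was called as well (log2 change -0.52, adjusted p = 0.00325), and so was the difference from the AzadC effect (-0.58, adjusted p = 0.0245, against -0.41 and 0.164 with all libraries). AzadC and vehicle differed by 0.06 with a 95% interval of -0.18 to 0.30.

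Igf2r and Airn form a sense and antisense pair on chromosome 17. Igf2r (12682406 to 12769664, minus strand) encodes the receptor that clears IGF2 and carries lysosomal enzymes, and is expressed from the maternal copy. Airn (12741311 to 12860136, plus strand) is a long noncoding RNA of the paternal copy that starts in intron 2 of Igf2r and silences Igf2r beside it. The genes overlap over 28354 bases, but 0 of the 3597 exon bases of Airn lie in an Igf2r exon. Whether reads were counted by strand is not stated in the labels or file headers, so reads from unspliced RNA of the partner cannot be told apart from Airn's own. In the RefSeq windows the start of Igf2r holds 34 CpGs and that of Airn 3.

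Neither gene passed edgeR's test in any comparison. Igf2r stood at 283.3, 389.2 and 308.4 CPM in control, 376.3, 351.1 and 291.0 in the knockout, 335.0, 333.6 and 307.0 in vehicle and 353.7, 329.6 and 346.2 in AzadC. All groups overlapped, and the knockout change of 0.05 had a 95% interval of -0.18 to 0.29. Airn stood at 15.4, 22.9 and 18.8 CPM in control, 16.5, 14.4 and 13.9 in the knockout, 14.2, 13.7 and 11.2 in vehicle and 15.3, 15.2 and 13.7 in AzadC. Its log2 change was -0.34 in the knockout (SE 0.15, adjusted p = 0.148) and -0.55 in vehicle (SE 0.15, adjusted p = 0.0618), both against control. Without control library 1 these passed the threshold (adjusted p = 0.0453 and 0.0287). The vehicle comparison was also called by DESeq2 (adjusted p = 0.0174) and without a filter on low counts (0.0247), and the knockout comparison by limma on log2 TPM (-0.54, adjusted p = 0.0481). The ratio of Igf2r to Airn in TPM, examined after the levels were seen and not tested, was 1.56 to 1.72 in control, 2.24 to 2.56 in the knockout, 2.22 to 3.10 in vehicle and 2.08 to 2.56 in AzadC. Control was thus apart from the other 3 groups, which overlapped.

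Impact, a paternally expressed gene whose protein restrains the amino acid sensor kinase GCN2, rose in the knockout. It lies on chromosome 18 at 12955852 to 12992950. It stood at 56.1, 60.6 and 63.5 CPM in control, 66.1, 77.7 and 74.1 in the knockout, 54.1, 57.8 and 54.4 in vehicle and 57.7, 54.3 and 54.9 in AzadC. The knockout libraries were the 3 highest of the 12. The knockout was 1.21 times control (log2 change 0.28, SE 0.07, adjusted p = 0.0250) and 1.31 times vehicle (log2 change 0.39, SE 0.07, adjusted p = 0.00452). The AzadC change of 0.00 had a 95% interval of -0.16 to 0.16. The call against control was lost without control library 1 or 2 (adjusted p = 0.0805 and 0.0690) or knockout library 2 or 3 (0.126 and 0.0722), and that against vehicle was kept on leaving out any library. In TPM, with transcript lengths of 1951 to 3048 bases over the libraries, the changes were 0.23 and 0.24 (limma, adjusted p = 0.343 and 0.338).

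In the pathway that IMPACT restrains, in which kinases phosphorylate eIF2 alpha and so induce stress genes, 7 of 14 genes tested rose in the knockout against control and 0 fell, with a list median of 0.21, beside 7.83% and 6.43% of all genes tested. Atf5, a transcription factor of this response, rose by 2.10 on the log2 scale (SE 0.17, adjusted p = 3.86e-06). Trib3, a pseudokinase induced by it, rose by 2.56 (SE 0.41, adjusted p = 0.00127), Sesn2, an inhibitor of mTORC1 signalling, by 1.22 (SE 0.16, adjusted p = 0.000295) and Nupr1, a stress-induced chromatin protein, by 3.35 (SE 0.55, adjusted p = 0.00140). Against vehicle 7 of 14 rose as well, beside 6.70% of all genes. With AzadC 0 of 14 were called by edgeR, DESeq2 or limma-voom, with 1 at an unadjusted p under 0.05 by each. Of all genes, edgeR called 0.00577% in each direction and had 6.37% at such a p. The difference between the knockout and AzadC effects was called for 4 of the 14, all higher, beside 2.20% of all genes, among them Atf5 (2.20, adjusted p = 0.000268).

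Elsewhere among imprinted genes, 8 of 57 others tested rose in the knockout against control and 7 fell, with a median log2 change of -0.06, beside 7.83% and 6.43% of all genes tested. The 8 include Zfp264, which passed the filter on low counts through its knockout libraries alone, so its call carries no weight. The genes named next are the others with the smallest adjusted p. Mest, a paternally expressed hydrolase-family gene, rose by 0.63 (SE 0.08, adjusted p = 0.000218), the amino acid transporter gene Slc38a4 by 0.44 (SE 0.07, adjusted p = 0.00111) and Peg12 by 0.42 (SE 0.08, adjusted p = 0.00539). The difference from the AzadC effect was called for these 3 as well (0.57, 0.42 and 0.52, adjusted p = 0.0146, 0.0330 and 0.0294). Between vehicle and control 4 were higher and 1 lower, beside 1.46% and 2.06% of all genes tested. Klf14 was lower (log2 change -2.13, adjusted p = 0.0116) and Magel2 higher (log2 change 1.41, adjusted p = 0.0141). With AzadC 0 of 57 were called by edgeR, DESeq2 or limma-voom, with 2 at an unadjusted p under 0.05 by each. Of all genes, edgeR called 0.00577% in each direction and had 6.37% at such a p. Among 20 factors that set or keep imprints, 2 rose and 2 fell in the knockout against control. These shares are near the 7.83% and 6.43% of all genes tested and so no result about the list, and Dnmt1, the deleted gene, is among those that fell. Uhrf1, which brings DNMT1 to newly copied DNA, rose by 0.35 (adjusted p = 0.0134) and Trim28, the partner of ZFP57, by 0.23 (adjusted p = 0.0307). Trim28 was also higher in vehicle than in control (0.26, adjusted p = 0.0432). Against vehicle 0 of the 20 factors were called higher in the knockout and 2 lower by edgeR, DESeq2 and limma-voom alike. Over all genes edgeR called 6.70% higher and 4.13% lower there. At an unadjusted p under 0.05, 0 of the factors were higher and 5 lower by each tool. In knockout against control, Tet2, which oxidises methylcytosine, fell by 0.33 (adjusted p = 0.00971) beside Dnmt1. Both were also lower in the knockout than in vehicle (Tet2 -0.38, adjusted p = 0.00532, and Dnmt1 -1.24, adjusted p = 1.62e-07).

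Most genes flanking the 6 loci were not called. Of the 36 nearest tested neighbours, 2 rose in the knockout against control and 3 fell, shares near the 7.83% and 6.43% of all genes and so no result about the neighbours. Besides Zfp264, whose call carries no weight for the same reason as above, Eef1b2 near Zdbf2 rose by 0.22 (adjusted p = 0.0399). Zfp28 near Zim1 fell by 0.33 (adjusted p = 0.0407), Phactr2 near Plagl1 by 0.37 (adjusted p = 0.0112) and Zfp521 near Impact by 0.47 (adjusted p = 0.00475). Against vehicle Cobl, next to Grb10 and itself an imprinted gene in some tissues, fell by 0.79 (SE 0.18, adjusted p = 0.0125), Ttc39c by 0.42 and Zfp521 by 0.32. With AzadC, and between vehicle and control, 0 of 36 were called by edgeR, DESeq2 or limma-voom, with 2 (AzadC) and 4 (vehicle) at an unadjusted p under 0.05 by edgeR. Of all genes, 6.37% (AzadC) and 19.2% (vehicle) had such a p.

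**Figure D4:**
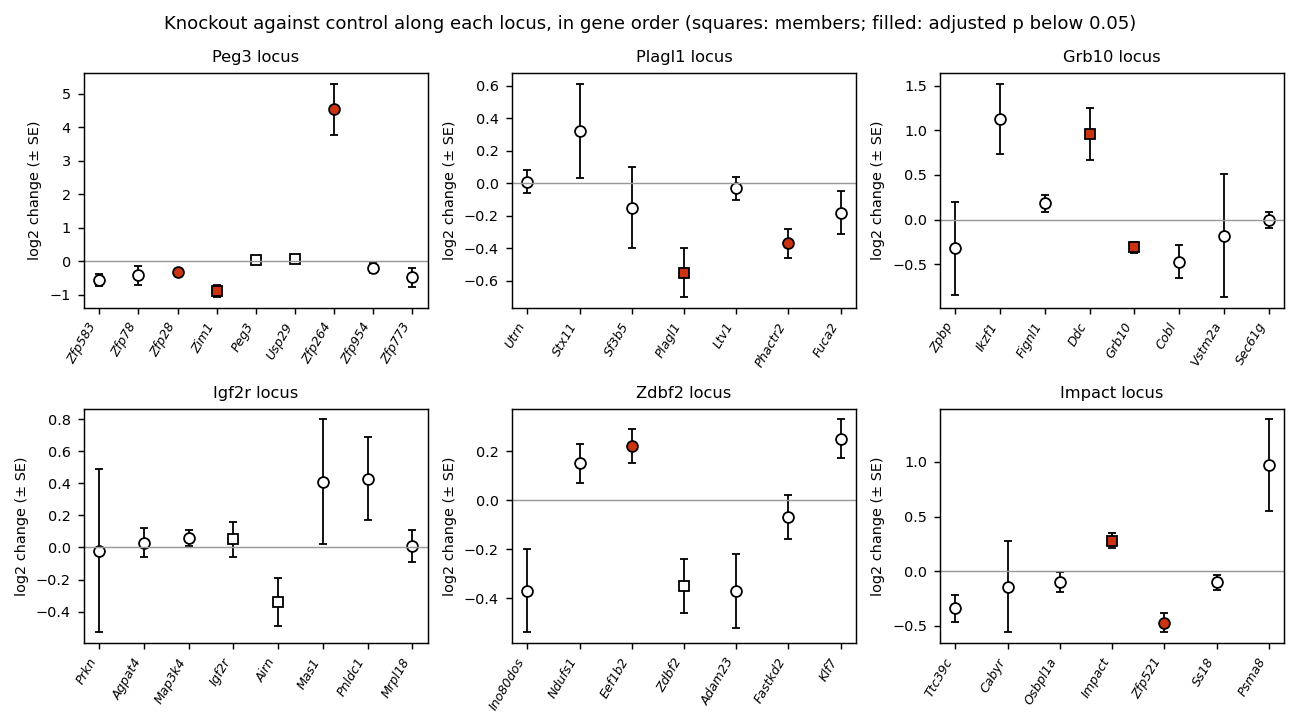
Log2 change of knockout against control (± SE, 3 libraries per group) for the members (squares) and their nearest tested neighbours (circles), in gene order along each locus. Genes with Gm or Rik names were left out, and each panel has a separate vertical scale. Filled symbols have an adjusted p below 0.05. Zfp264 at 4.54, which passed the count filter through the knockout alone, stands far above the other genes of the Peg3 panel, and Ddc and Grb10 lie on opposite sides of 0.

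Across the 12 libraries the members varied in 2 groupings, described here by Pearson's r of log2 CPM without a test, since the libraries share groups and tissue composition. Grb10 and Zdbf2 ran together (r = 0.92), and both ran against Impact (r = -0.91 each). Grb10 ran against Ddc (r = -0.84), and Zim1 ran with Airn (r = 0.78). Other genes were compared if tested and above a mean of 5 CPM, with Y-linked genes and Gm or Rik names left out. Among these, the closest to Grb10 were St8sia4 (0.987), Mecom (0.984) and Zeb2 (0.978), and those closest to Plagl1 were Ppp3ca (0.973), Adamts20 (0.969) and Tmem26 (0.957). Impact was closest to Lrba (0.976), Rnf182 (0.967) and Vwa8 (0.963), Ddc to Map2k1 (0.952), Synpo2 (0.925) and Megf10 (0.915), and Zim1 to Stk26 (0.921), Colgalt2 (0.909) and Copg1 (0.902).

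With the score of the 18 macrophage markers as a covariate, no member was called in any comparison with the knockout. Of all 17335 genes, that fit called 1 in knockout against control, 1 against vehicle and 4 in the difference, so this is no result about the members. That score was 1.20 to 1.23 in the knockout libraries and -0.94 to 0.16 in the 9 others, so this covariate and the genotype cannot be told apart.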

How the data were processed

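RNA was sequenced from palatal shelves at gestational day 12 in 4 groups of 3 libraries, each a pool of 2 embryos. Reads were processed with FastQC, Trim Galore, STAR 2.7.0 and RSEM 1.3.1 on mm10, and DESeq2 is also named, per the submitters' processing notes. RSEM's expected counts, its TPM and its abundance-weighted transcript length in bases (another quantity) were used as deposited by the authors, per the file headers. Expected counts, whose unit is reads per gene estimated by RSEM, were made by the authors before deposit, per the file headers. RSEM divides ambiguous reads between genes, so counts need not be whole. The strand setting is not given in the sources used here.

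Counts were rounded and fitted in edgeR 4.0.16 (R 4.3.3) with filterByExpr, TMM scaling (factors 0.985 to 1.01) and 1 mean per group over all 12 libraries. The quasi-likelihood test was adjusted by Benjamini-Hochberg over 17335 genes at 0.05. Standard errors are the absolute log2 change over the root of F. Common biological variation was 0.152. Replicates differed beyond sampling noise in each group. The fit was tested on simulated counts: for knockout against control it recovered 27.8% of genes changed 1.5-fold, 85.5% of those changed 2-fold and 94.3% of those changed 4-fold, for AzadC against vehicle 20%, 79.7% and 94.1%, and for the difference of effects 5.1%, 50.6% and 93.5%, where 6.5% of calls were false. Those simulated counts gave all genes the same spread. For knockout against control and the difference, they also changed far fewer genes than were called here. The shares need not hold for these data. P-values measure the spread between pools. Alternatives were DESeq2 1.42.0, limma-voom (limma 3.58.1), other scalings and filters, covariates, a replicate block, each library left out, and, added after the transcript lengths were seen, limma on log2(TPM + 0.1), a scale that understates changes of low genes.

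Promoter sequences are RefSeq's on GRCm38.p6, and 9 of the 10 genes matched a window shown or counted here. Coordinates are those of GENCODE on GRCm38, in which 91.9% of the gene identifiers were found. Named besides the members are Dnmt1, up to 4 genes per list and comparison by smallest adjusted p, the nearest 3 tested genes on each side of a locus, and the 3 genes most correlated with each member called in knockout against control. Genes with Gm or Rik names were left out of the neighbours and of the correlations, and Y-linked genes out of the correlations. Zim2 was chosen after its values were seen. The members and lists were chosen with earlier results of these data known, so no list count is independent support.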

Additional observations from a re-analysis of the deposited data

Results flagged for a closer look

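The effect of the Dnmt1 knockout differed from that of AzadC for 2 of the 10 genes by a test of the difference itself, where 2.20% of all genes were called in each direction. Each of the 2 calls held in only 12 of 23 alternative settings, and leaving out single libraries ended it, as given above. For Plagl1 the knockout effect minus the AzadC effect was -0.83 on the log2 scale (edgeR, adjusted p = 0.0399): the knockout change against control was -0.55 and the AzadC change against vehicle 0.28. For Grb10 it was -0.36 (edgeR, adjusted p = 0.0280), from -0.31 and 0.05. On simulated counts this test recovered 5.1% of 1.5-fold and 50.6% of 2-fold differences, with 6.5% of calls false. Those counts gave all genes the same spread and changed far fewer genes than were called here. The shares thus need not hold for these 2 genes. The 2 effects are measured against different wild-type references, and vehicle differed from control by -1.04 for Plagl1 and 0.15 for Grb10.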

How the results depend on the processing

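The numbers of members called depend on the processing in these comparisons. In knockout against control, 2 were higher; 1 was with only the groups compared, 1 with the replicate block, 1 with the myogenic score, 0 with the macrophage score, 0 on log2 TPM, and 0 to 2 with 1 library left out. The 3 lower became 0 with the macrophage score and 4 by DESeq2 and without a filter. In vehicle against control, 1 was lower; 3 were by DESeq2, 4 without a filter, 2 with the myogenic score, 0 on log2 TPM, and 1 to 4 with 1 library left out. In knockout against vehicle, 2 were higher; 4 were by DESeq2, 4 without a filter, 4 with only the groups compared, 1 with upper-quartile scaling, 1 with the Y-linked covariate, 0 with the macrophage score, 0 on log2 TPM, and 1 to 4 with 1 library left out. The 2 lower became 0 with the macrophage score and 1 on log2 TPM. In the difference of effects, 2 were lower; 1 was with the replicate block, 0 with the myogenic score, 0 with the macrophage score, 0 with the Y-linked covariate, 1 on log2 TPM, and 0 to 3 with 1 library left out. Calls over all genes moved with these settings too. In knockout against control, 1358 were higher and 1115 lower in the main fit, 1 and 0 with the macrophage score, and 775 and 1017 on log2 TPM. In vehicle against control they were 253 and 357 in the main fit and 563 and 751 by DESeq2. They were 81 and 114 there on log2 TPM, and 487 and 772 of 30933 genes without a filter. The cause was not tested. Same-numbered libraries correlated at -0.36 to 0.39, so the numbers do not pair them; under the replicate block the lost calls were Ddc against control (0.98, adjusted p = 0.0502) and the Grb10 difference (-0.36, adjusted p = 0.0534), and Peg3 against vehicle was gained (0.31, adjusted p = 0.0396).

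Over all members, comparisons and settings, 1059 single-gene results kept their direction and call. Of the others, 60 lost a call and kept their sign, 35 gained a call and 36 changed sign. Among those that changed sign, Zim1, Plagl1 and Ddc against control with the macrophage score also lost their calls. With the macrophage score, which separates the knockout from all other libraries, the changes that reversed were Zim1 0.10, Plagl1 0.52, Ddc -1.36 and Airn 0.59 against control, Igf2r 0.06 in vehicle against control, Zim1 0.70 and Ddc -1.14 against vehicle, and Peg3 0.60, Usp29 0.19, Ddc -0.53, Igf2r 0.39 and Airn 0.14 in the difference. Other reversals were of changes near 0. On log2 TPM the knockout change of Peg3 was -0.02 and of Igf2r -0.01. With the myogenic score Igf2r was -0.09 against control and -0.02 against vehicle. In vehicle against control Igf2r was 0.01 with upper-quartile scaling and 0.02 with the Y-linked covariate. In the difference, the Y-linked covariate gave Peg3 0.04 and Igf2r 0.06. With 1 library left out, Peg3 ran from -0.06 to 0.14 and Igf2r from -0.04 to 0.20 in knockout against control, Zim1 from -0.02 to 0.22 and Ddc from -0.41 to 0.13 in AzadC against vehicle, Igf2r from -0.10 to 0.14 in vehicle against control and from -0.02 to 0.16 in knockout against vehicle, and in the difference Peg3 from -0.16 to 0.04, Usp29 from -0.22 to 0.01 and Igf2r from -0.12 to 0.12. At this depth and with 3 pools per group, 27.8% of simulated 1.5-fold changes were recovered in knockout against control. The simulation changed 54, 76 and 70 genes by 1.5-, 2- and 4-fold, far fewer than the 1358 and 1115 called here. That share need not hold for these data, where changes of that size may still be missed.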
